A study of Mus musculus with 6 samples.

Results

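The microRNAs (miRNAs) described here are miR-500 and its neighbours in the Clcn5 gene, measured in the mouse erythroid line G1E-ER4. The members are all array probes that name miR-500, miR-501, miR-188, miR-362 or miR-532, with or without an arm suffix. Of these 5 names 4 were found (mmu-miR-500, mmu-miR-501, mmu-miR-188 and mmu-miR-362), each with 1 probe of 4 spots, so the set holds 4 of the 294 probes that name a mouse miRNA. MiR-532 was not analysed here, and neither were miR-660 and miR-502, which belong to the same cluster in mouse or human. The set was built around miR-500 because its log ratio rose after estradiol in these arrays. The change of miR-500 is therefore a description here and carries no test, while its neighbours were chosen by their position in the genome.

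Both groups were cultures of G1E-ER4, which lacks its own GATA-1 and expresses an estrogen-responsive form of this transcription factor, grown with erythropoietin and stem cell factor. In 1 group 3 cultures were untreated (0 h), and in the other 3 cultures had received 1e-07 M estradiol for 24 h. The cultures were grown and harvested independently. Each sample was labelled with the dye Hy3 and hybridised beside a common reference in Hy5, an equal mix of all 6 samples, with 1 dye orientation throughout. RNA was taken from whole cultures, so fewer cells of a type and less RNA per cell cannot be told apart. No culture kept for 24 h without estradiol and no cells without the inducible GATA-1 were measured, so GATA-1 activation cannot be told apart from time in culture or from other effects of estradiol.

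MiRNAs are short RNAs cut from hairpin precursors, and bases 2 to 8 of the mature strand, the seed, do most of the pairing with target mRNAs. Hairpins that lie close together on the same strand can be cut from a shared primary transcript, and the mature products can still reach different levels because each is processed and degraded separately. Clcn5, the host gene, encodes a chloride/proton exchanger of endosomes.

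In RefSeq's table for build GRCm38.p6 all 5 hairpins of the rule lie on the minus strand of chromosome X inside the span of Clcn5, within 10815 bases. The table gives gene spans and no exons, so exon or intron was not assigned here. In the direction of transcription Mir532 comes first and Mir188 second (chrX:7247989-7248056), 345 bases further on. After 5942 bases follows Mir362 (chrX:7241982-7242046), after another 630 bases Mir501 (chrX:7241243-7241351), and after 3468 bases Mir500 (chrX:7237683-7237774), the last of the 5. Mir500 and Mir501 are shown whole because a probe for either could meet a close relative of its target, with the mature arms in capitals, 5′ to 3′.
Mir500: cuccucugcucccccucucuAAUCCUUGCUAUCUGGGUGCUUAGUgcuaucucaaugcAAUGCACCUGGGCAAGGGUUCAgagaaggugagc
Mir501: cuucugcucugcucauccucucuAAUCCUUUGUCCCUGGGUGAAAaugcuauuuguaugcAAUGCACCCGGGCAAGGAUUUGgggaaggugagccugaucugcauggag

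The array's names carry no arm, and probe sequences were not used here, so both arms of each of the 4 members are listed below by shared seed, which is in capitals. The first pair shares the seed of the 3′ arms of miR-500 and miR-501.
mmu-miR-500-3p: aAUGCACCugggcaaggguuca
mmu-miR-501-3p: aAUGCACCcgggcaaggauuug
The next pair shares the seed of the 5′ arms of miR-500 and miR-362, and the 5′ arm of miR-501, printed after them, departs from that seed at 1 base.
mmu-miR-500-5p: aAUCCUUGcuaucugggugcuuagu
mmu-miR-362-5p: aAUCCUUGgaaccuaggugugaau
mmu-miR-501-5p: aAUCCUUUgucccugggugaaa
The remaining arms share a seed with no other member.
mmu-miR-362-3p: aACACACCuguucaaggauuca
mmu-miR-188-5p: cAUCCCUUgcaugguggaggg
mmu-miR-188-3p: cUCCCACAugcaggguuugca
Counted from the 5′ end, the 3′ arms of miR-500 and miR-501 are identical at 18 of 22 bases and differ by U9C, G18A, C21U and A22G, with the base of miR-500 first. The 5′ arms of miR-500 and miR-362 are identical at 16 of 24 bases compared, and the 3′ arms of miR-500 and miR-362 at 17 of 22. Whether a probe also binds a relative of its target was not tested. Of the 275 miRNA names on the array 210 matched a RefSeq entry, and among the matched names outside the set only miR-329 shared a seed with a member (that of miR-362-3p). Its log ratio differed by -0.11 (SE 0.14; limma adjusted p = 0.76).

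Each array held 2240 spots. The median Hy3 foreground of miRNA spots was 1667 to 2261 in the untreated group and 1835 to 1954 in the estradiol group, with a median local background of 982.5 to 1412 and of 1005 to 1035.5. The spot finder called 79 to 84 miRNA probes present (not empty in at least 0.5 of their spots) in Hy3 on untreated arrays and 102 to 109 on estradiol arrays. In Hy5, where every array carries the reference pool, it called 80 to 115 present on untreated arrays and 121 or more on estradiol arrays, so detection was higher on the estradiol arrays in both channels. Of the erythroid markers, miR-451 was called present on 0 untreated and 3 estradiol arrays, miR-144 on 0 and 2, and miR-486 on 0 and 3. The log2 difference was 5.04 for miR-451 (limma adjusted p = 4.7e-13), 1.50 for miR-144 (limma adjusted p = 9.5e-06) and 0.41 for miR-486 (limma adjusted p = 0.18). Among 8 probes for markers of myeloid, lymphoid, liver, muscle and neural cells none passed the test, and miR-150 and miR-122a were called present on all 6 arrays. The largest rise among the 8 was that of neural miR-9, at 0.57 (limma adjusted p = 0.18), called present on 0 untreated and 0 estradiol arrays. A probe naming muscle miR-133a together with miR-133b was not among the 8 and differed by -0.17 (limma adjusted p = 0.67). Present calls also went from 0 untreated arrays to 3 estradiol arrays for neural miR-124a, to 2 for muscle miR-206 and to 1 for myeloid miR-223.

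MiR-500 was 2.58-fold higher after estradiol relative to the reference, while none of its 3 neighbours passed the test. MiR-188 was the only neighbour that the spot finder called present on any array in Hy3, and its log ratio was 0.36 lower with an adjusted p that missed the threshold. MiR-501 and miR-362 were called empty on all 6 arrays in Hy3, so no fold is given for them, and their differences below are between log ratios of spots near background. With all 294 probes fitted together by limma (Benjamini-Hochberg, threshold 0.05), 19 probes passed, which is 6.46% of those tested, 17 of them higher (5.78%) and 2 lower (0.68%). Of the 3 neighbours 0 passed in either direction, and their unadjusted p-values were 0.037 for miR-188, 0.21 for miR-501 and 0.58 for miR-362. The median log2 difference over the 3 neighbours was -0.23 in the log ratio, the value of miR-501, beside -0.02 over all 294 probes. In single channels after quantile normalization the neighbours' median had the other sign. It was 0.30 in Hy3, the value of miR-188 (all probes -0.02), and 0.62 in the Hy5 reference, that of miR-501 (all probes -0.04). A median of 3 is the value of 1 member, so no shared shift is read from it. The split of 17 higher and 2 lower became 12 and 5 with loess through the probes that stood above background in Hy3 and Hy5, 5 and 2 with centring on spiked controls, and 3 and 0 in Hy3 alone. That loess also moved the median difference of all probes to -0.12, and miR-500 then stood 1.56 above it. Without estradiol replicate 1 the 19 became 9, and without estradiol replicate 2 they became 10.

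**Figure D1:**
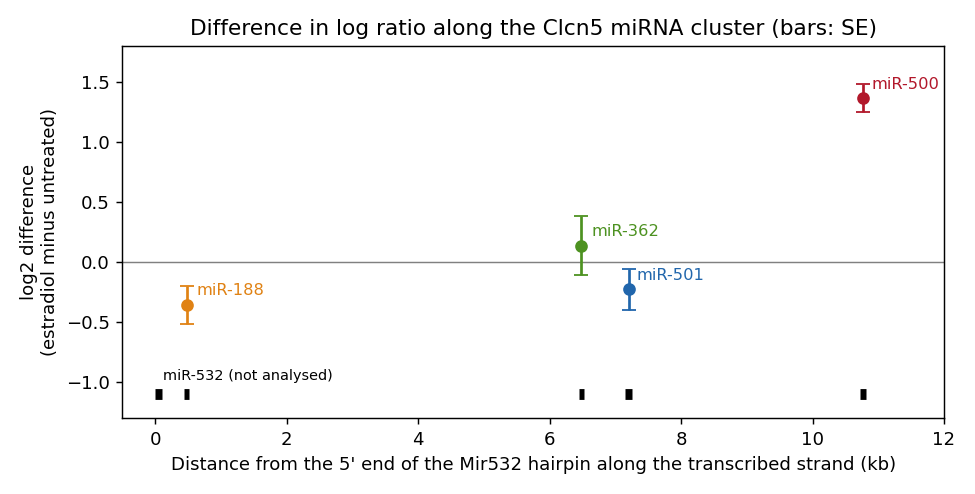
Difference in log2(Hy3/Hy5) between estradiol and untreated arrays (3 each, bars: SE) against the distance of each hairpin from the 5′ end of Mir532 along the transcribed strand, in kb; black blocks mark the hairpins. MiR-500, at the far end, stands at 1.37, and the 3 neighbours lie between -0.36 and 0.14.

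Mmu-miR-500 had log ratios of -1.13, -0.73 and -1.11 in untreated replicates 1 to 3 and of 0.32, 0.34 and 0.47 in estradiol replicates 1 to 3. Every untreated value lay below the reference and every estradiol value above it, with no overlap. Groups stood apart in this direction for 43 of 291 probes (14.8%), and miR-500 was chosen for its rise. The group means were -0.99 ± 0.23 (SD, n = 3) and 0.37 ± 0.08 (SD, n = 3), a difference of 1.37 (SE 0.12), the third largest rise among the 294 probes after miR-451 (5.04) and miR-144 (1.50). In the authors' deposited table the log2 ratios of miR-500 were -1.09, -0.63 and -1.04 for the untreated and 0.38, 0.37 and 0.45 for the estradiol cultures. The reference is an equal pool of the 6 samples, and the sample-to-reference ratios of miR-500 averaged 0.903 over the 6 arrays.

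By channel, miR-500 differed in the sample and, by some measures, also in the reference. Its mean Hy3 foreground was 4651, 9724 and 6284 without estradiol, against 19768, 15422 and 20822 with it, and the mean local background was 977 to 1539 and 1050 to 1092. Its mean Hy5 foreground was 6192, 14688 and 11698 against 14846, 10636 and 16708. By foreground the groups were apart in Hy3 and overlapped in Hy5. As a ratio to local background they were apart in both, at 4.72 to 6.10 against 14.7 to 19.5 in Hy3 and at 9.89 to 15.6 against 18.8 to 28.8 in Hy5. After quantile normalization between arrays, the difference was 1.33 (SE 0.24) on the log2 scale in Hy3 and 0.01 (SE 0.18) in Hy5. In the fits of single channels 3 of 294 probes passed in Hy3 (1.02%) and 0 in Hy5 (0%; limma, with 37 at an unadjusted p under 0.05).

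All 12 spots of miR-500 in each group were called present in both channels. By the stricter measure of a spot median more than 2 background SD above the local background, 7 of 12 untreated and 12 of 12 estradiol spots passed in Hy3. On untreated array 2 the Hy3 foreground ranged from 4097 to 14336 between the 4 spots, a 3.50-fold range, while the SD of the log ratio between those spots was 0.29. On the estradiol arrays the SD between spots was 0.06 to 0.12. The spread between spots of 1 untreated array (0.24 to 0.46) was as wide as that between untreated arrays.

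**Figure D2:**
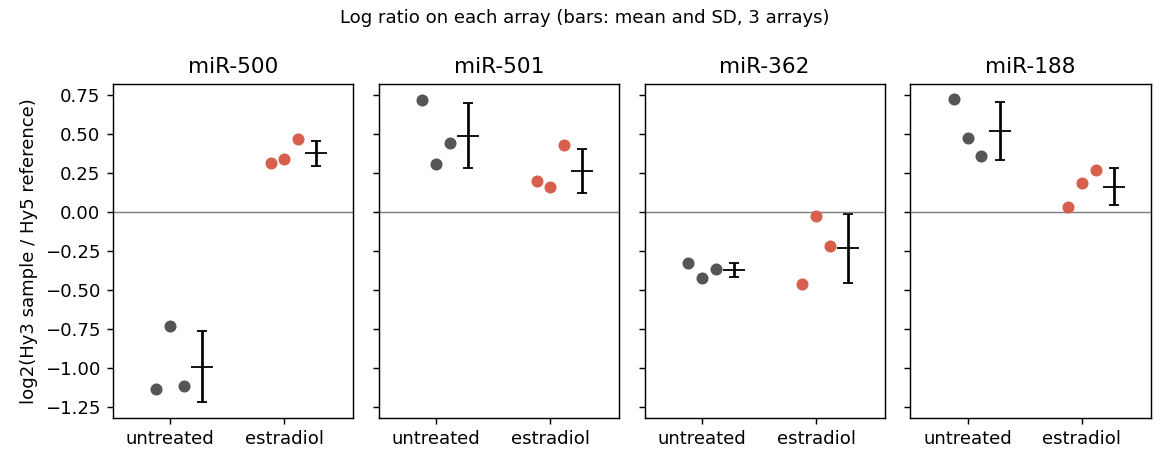
Log2 ratio of sample to reference on each array for the 4 members (points: arrays; bars: mean and SD of 3 arrays). MiR-500 moved from below 0 on all untreated arrays to above 0 on all estradiol arrays. MiR-501 and miR-362 overlap between the groups, and miR-188, by its kept spots, is lower on all 3 estradiol arrays.

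Mmu-miR-188, known in mouse for shifting bone marrow stromal cells between bone and fat formation, lies second along the strand. Its log ratios were 0.72, 0.47 and 0.36 in untreated replicates 1 to 3, against 0.03, 0.19 and 0.27 with estradiol. All 3 estradiol values lay under all 3 untreated ones, as did those of 23 probes in all (7.9% of 291 with a value on every array), beside 43 whose groups stood apart the other way (14.8%) and 66 in either direction (22.7%). The means were 0.52 ± 0.19 (SD, n = 3) and 0.16 ± 0.12 (SD, n = 3), a difference of -0.36 (SE 0.16; limma adjusted p = 0.23). Its unadjusted 95% interval ran from -0.69 to -0.02, and 54 of the 294 probes had an unadjusted p under 0.05 in this comparison. Without background subtraction the difference was -0.03. Of the 4 spots, 3 were kept on untreated array 2, 3 on estradiol array 2 and 2 on estradiol array 3. The dropped spots had log ratios of -0.45 on untreated array 2, 0.60 on estradiol array 2, and 0.58 and 0.38 on estradiol array 3. Each lay on the side that would narrow the gap between the groups. With all spots kept the difference was -0.22 (SE 0.17, limma adjusted p = 0.57).

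In Hy3 alone the difference of miR-188 had the other sign. Its mean Hy3 foreground was 1842, 2865 and 2786 without estradiol, against 3834, 3589 and 3158 with it. In the reference it was 924, 2155 and 1982 against 2904, 2279 and 2163, so both channels were brighter on the estradiol arrays. The spot finder called 2 of 12 untreated and 10 of 12 estradiol spots present in Hy3, and 3 of 12 and 11 of 12 in Hy5. Quantile-normalized Hy3 differed by 0.30 (SE 0.37; limma adjusted p = 0.65) and Hy5 by 0.89 (SE 0.53; limma adjusted p = 0.43). The reference is the same RNA on all arrays, and the part of this array difference in the log ratio of miR-188 was not tested. The ratios of miR-188 averaged 1.28 over the 6 arrays. In the authors' deposited table miR-188 had a log2 ratio for 1 untreated culture (0.50, replicate 2) and for all 3 estradiol cultures (0.05, 0.18 and 0.40).

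**Figure D3:**
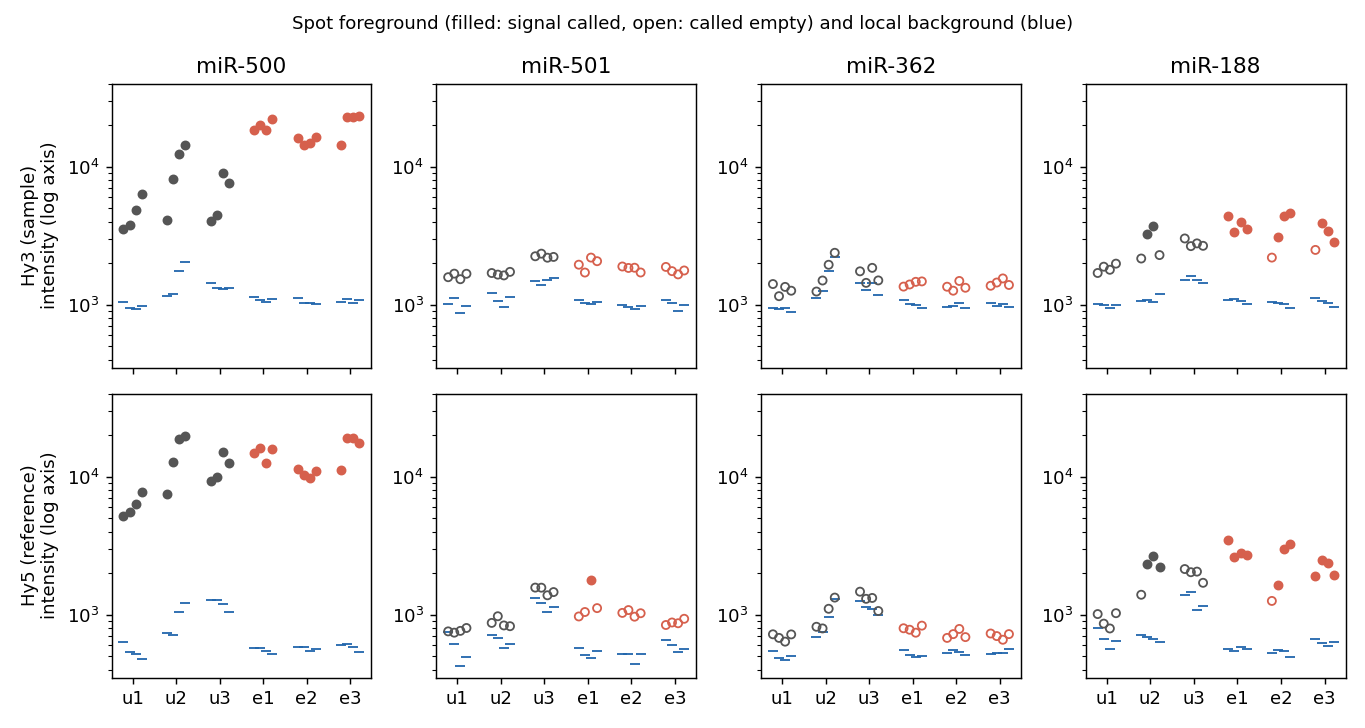
Foreground intensity of each of the 4 spots per array (filled: called present, open: called empty) and local background (blue) in Hy3 (top) and Hy5 (bottom), log axis; u1 to u3 are untreated and e1 to e3 estradiol arrays. By foreground, miR-500 separates the groups in Hy3 and not in Hy5, miR-188 is brighter on estradiol arrays in both, and miR-501 and miR-362 stay near their background.

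Mmu-miR-501, the nearest upstream neighbour of miR-500 and known in mouse neurons for its 3′ arm acting on a glutamate receptor mRNA, had log ratios of 0.71, 0.31 and 0.44 before and 0.20, 0.16 and 0.43 after estradiol. The groups overlapped, and their difference was -0.23 (SE 0.17; limma adjusted p = 0.52; unadjusted 95% interval -0.59 to 0.14). The value of 0.71 on untreated array 1 averages 3 kept spots at 2.07, -0.04 and 0.12 (SD 1.17). In the spot at 2.07 the Hy5 foreground was 757 on a local background of 749. The difference was -0.11 without untreated replicate 1 and 0.030 with the median over spots. In single channels miR-501 differed by 0.11 in Hy3 (SE 0.18; limma adjusted p = 0.73) and by 0.62 in the Hy5 reference (SE 0.23; limma adjusted p = 0.37). The Hy5 values were 7.85, 8.28 and 8.19 without estradiol and 8.78, 8.92 and 8.48 with it, on the log2 scale. The part of the reference in the log ratio of miR-501 was not tested. None of its 24 spots was called present in Hy3, and 1 was in Hy5, on estradiol array 1. Its Hy3 foreground was 1.52 to 1.64 times the local background on untreated and 1.76 to 1.91 times on estradiol arrays. For comparison, the 80 spots that the array lists as empty had medians of 1.33 to 1.47, and miR-501 exceeded their 95th percentile on 6 of 6 arrays in Hy3 and 3 of 6 in Hy5.

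Mmu-miR-362, whose 5′ arm has the seed of the 5′ arm of miR-500, had log ratios of -0.33, -0.42 and -0.36 before and -0.46, -0.02 and -0.22 after estradiol. The lowest of the 6 values was an estradiol array and so were the 2 highest. The difference was 0.14 (SE 0.25; limma adjusted p = 0.83; unadjusted 95% interval -0.39 to 0.66). In single channels after quantile normalization miR-362 differed by 0.39 in Hy3 (SE 0.22; limma adjusted p = 0.38) and by 0.22 in the Hy5 reference (SE 0.20; limma adjusted p = 0.53). All 24 spots were called empty in both channels. Its Hy3 foreground, as a mean over 4 spots, was 1.12 to 1.45 times the local background over the 6 arrays. This mean exceeded the 95th percentile of the single listed empty spots on 0 of 6. In Hy5 it exceeded that percentile on 1 of 6. A difference in miR-362 was therefore not detectable at this signal.

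**Figure D4:**
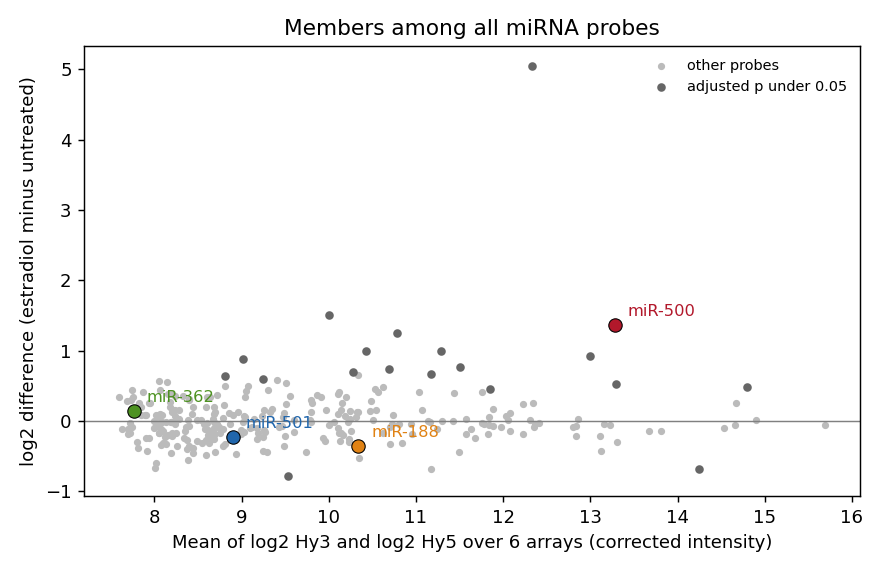
Difference in log ratio (estradiol minus untreated) of all 294 miRNA probes against their mean corrected intensity over both channels and 6 arrays, log2 scale; dark points passed the adjusted threshold of 0.05. MiR-500 lies at 1.37, and miR-188, miR-501 and miR-362 lie among the probes that did not pass.

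Only miR-500 of the 4 members passed a brightness filter that asks for Hy3 above background by 2 SD in at least 0.5 of the spots on all 3 arrays of a group, as 51 of 294 probes did. In that fit 13.7% of the probes were called, 11.8% as higher and 1.96% as lower. The filter asks for brightness in 1 group only, and 57 to 62 probes were above 2 SD in Hy3 on estradiol arrays against 37 to 47 on untreated ones. A probe bright only after estradiol entered through that group, so nothing is read from these shares or their direction. With the spot finder's own call as the filter 90 probes passed, miR-500 and miR-188 among them. MiR-188 passed through the estradiol group, with 0, 2 and 0 of 4 spots called present on the untreated arrays and 4, 3 and 3 with estradiol, so its p-value in that fit is not given. Of those 90 probes 16.7% were called, 14.4% as higher and 2.22% as lower, and the same holds for them.

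Among the other probes that passed the brightness filter and had a value on all 6 arrays, the log ratios most like those of miR-500 over the 6 arrays were those of miR-451 (Pearson r 0.985), miR-129-5p (0.976) and miR-106b (0.941). These values describe 2 sets of 3 arrays that stand apart and share 1 reference. Any probe with a large rise and a small spread therefore gives a high r. Their own differences were 5.04 for miR-451, 0.52 for miR-129-5p and 0.46 for miR-106b. These probes were picked for following miR-500, whose values split by group, so no p-value is given for them here.

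On chromosome X, the array names 25 further miRNA probes that could be matched to RefSeq entries on this chromosome only. Of these 0 passed as higher and 1 as lower, miR-222, with a difference of -0.78 (SE 0.19; limma adjusted p = 0.023), which did not pass the brightness filter, as 6 of the 25 did. The median difference of these 25 probes was -0.05, against -0.02 over all 294 probes, of which 5.78% passed as higher and 0.68% as lower.

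**Figure D5:**
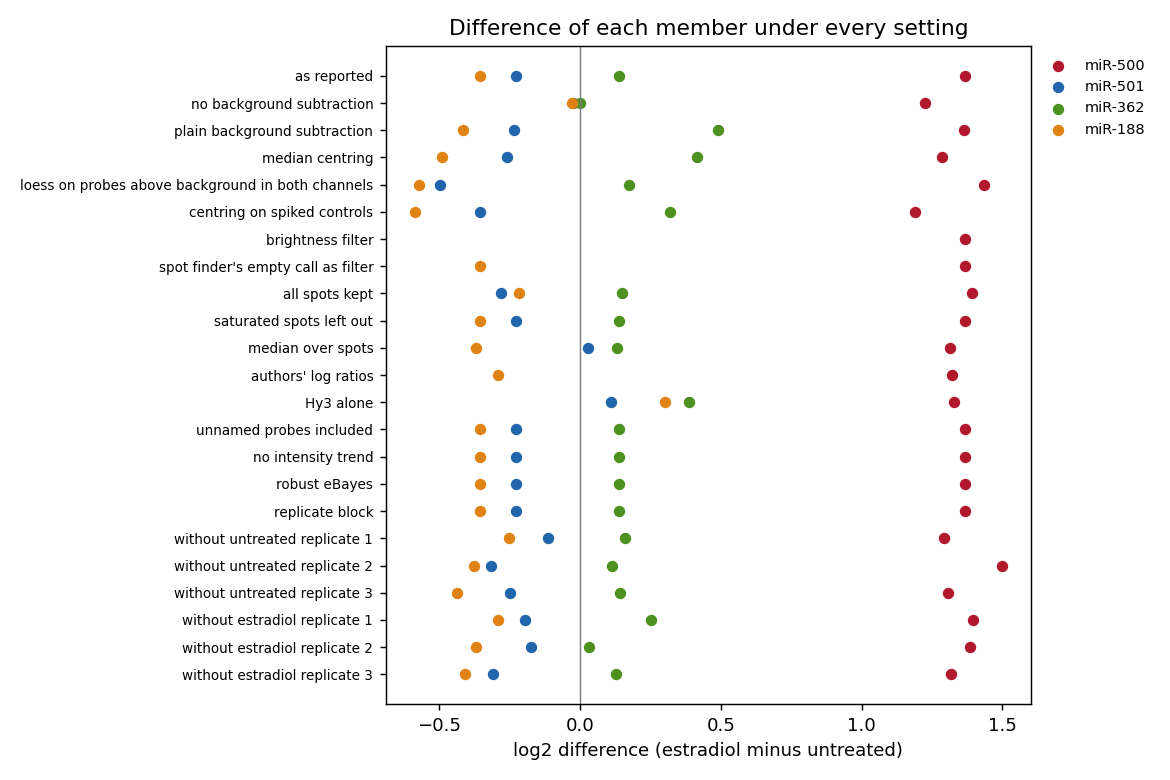
Log2 difference of each member (estradiol minus untreated) as reported and under each alternative setting, including fits without 1 array; a missing point means that the member was not measured or not tested there. MiR-500 stays between 1.19 and 1.50, and the 3 neighbours between -0.59 and 0.49.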

How the data were processed

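The deposited scanner tables hold foreground and local background intensity per spot for both channels, not background-subtracted, per the file headers. The authors' deposited log2 values are medians over spots of lowess-normalized Hy3/Hy5 ratios, per the file headers. The sources used here do not name scanner or software. Mean foreground and median background went through limma's normexp correction with offset 50, and loess within each array, controls at weight 0, normalized log2(Hy3/Hy5) before the kept spots of a probe were averaged (limma 3.58.1, R 4.3.3). Per array, 131 to 224 spots that failed the spot finder's quality flags in either channel were dropped. Foreground means in the text use all 4 spots. Estradiol was compared with untreated by lmFit and eBayes with an intensity trend over 294 probes, and p-values were adjusted by Benjamini-Hochberg. The procedure was tested on simulated data in which only probes above background in Hy3 were changed. Probes near background, such as miR-501 and miR-362, were not covered by it. Named miRNAs are the members, the 3 probes most like miR-500, array miRNAs sharing a member's seed, the largest rise and fall past the threshold among other chromosome X miRNAs, and markers. Members, lists and settings were chosen with earlier results of these data known. P-values rest on the spread between 3 cultures a group, which eBayes draws towards an intensity trend over all fitted probes. Sequences are from RefSeq (GRCm38.p6). Figures were drawn with matplotlib 3.10.9.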

Additional observations from a re-analysis of the deposited data

How the results depend on the processing

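MiR-500 was chosen for its rise on these same arrays, so its values under other settings are a description and no support for the rise. The difference of miR-500 stayed positive in all 22 alternatives. Its lowest value was 1.19, with centring on spiked controls, and leaving out 1 array gave 1.29 to 1.50. No alternative that could be read brought a neighbour past the threshold. The limma adjusted p was 0.10 to 0.93 for miR-188, 0.40 to 0.96 for miR-501 and 0.34 to 0.996 for miR-362. For miR-188 this leaves out the spot finder's filter, which it passed through the estradiol group. It also leaves out the authors' log ratios, where miR-188 had a value for 1 untreated culture only. The sign turned for miR-188 in Hy3 alone (0.30) and for miR-501 in Hy3 alone (0.11), and the cause was not tested. For miR-501 it also turned with the median over spots (0.030). On untreated array 1 its kept spots lay at 2.07, -0.04 and 0.12, so mean and median part there. Without single arrays the values were -0.44 to -0.25 for miR-188, -0.32 to -0.11 for miR-501 and 0.03 to 0.25 for miR-362. The count of 19 probes became 12 with median centring, 7 with centring on spiked controls, 7 with the brightness filter (51 tested), 3 in Hy3 alone and 8 without the intensity trend, and leaving out 1 array gave 9 to 25. With the replicate number as a block it was 22 and no member's call changed. Deviations of same-numbered arrays correlated at 0.117, 0.144 and 0.083 over 291 probes. Each array correlated best with its own number, a hint of pairing from the data, but 1 of the 3 was under 0.1 and the labels name no shared batch, so the numbers were not taken as pairs. MiR-501 and miR-362 could not be fitted in the authors' log ratios or under either filter, nor miR-188 under the brightness filter. The loess on probes above background holds its curve constant outside their brightness. Signal near background limits miR-501 and miR-362, and on untreated arrays miR-188, of whose 12 Hy3 spots there 2 were called present.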
